A study of Mus musculus with 13 samples.

Results

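The genes described here are 8 markers of cholangiocytes, the epithelial cells that line the bile ducts, and of the progenitor or fetal states of liver epithelium: Krt7, Krt19, Epcam, Sox9, Cftr, Cd24a, Afp and Prom1. Their probes were found by gene name in the scanner files, where Epcam is listed under its older symbol Tacstd1, and they amount to 13 of the 41174 probes on the array. All 8 genes had a probe bright enough to be tested, among 20392 genes tested of 27670 distinct names.

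The study measured liver RNA of 13 male C57BL/6 mice, 1 animal per array, in 3 genotypes of the deacetylase SIRT1, whose residue T522 can be phosphorylated. The 5 WT mice carried wild-type SIRT1, the 5 TAKI mice a SIRT1 TA KI allele, and the 3 TEKI mice a SIRT1 TE KI allele. Every animal had eaten a western-style high fat diet over 5 months and none had another treatment, so there was no group on ordinary food. The zygosity and the age of the animals are not given in the sources used here, and expression probes do not read the altered codon, so the allele of each animal was not checked.

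In a healthy liver the keratins Krt7 and Krt19, the adhesion molecule Epcam, the transcription factor Sox9 and the chloride channel Cftr mark the biliary epithelium, which makes up a small part of the organ. When the liver is injured for long, ductal cells multiply in a ductular reaction, and some hepatocytes take on Sox9 and other ductal genes. Afp is the main serum protein of the fetal liver, silenced after birth and raised again in regeneration and in liver tumours, while Cd24a and Prom1 (CD133) are surface proteins used to isolate progenitor cells. Since whole liver was measured, fewer cells of a type and less RNA per cell cannot be told apart in any value below.

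Levels are log2 intensities after subtraction of each array's 75th percentile, so a step of 1 is a doubling, and a level is compared between animals for 1 probe. The scanner software called 60.5 to 73.1% of spots well above background on 12 arrays, against 86.8% on the array of TEKI replicate 1, which also had 87 spots marked as non-uniform where the others had 1 to 6. The arrays lay on 5 slides. TAKI livers lay on slides 4 and 5 alone, so TAKI and slide cannot be told apart, whereas slide 3 held the 3 TEKI livers and WT replicate 5. The 11 hepatocyte markers tested, among them albumin (Alb) and the apolipoprotein Apoa1, were above background on all 13 arrays. So were 6 of the 14 acinar markers tested, which would mark attached pancreas, while the acinar enzymes Cpa1 and Pnlip were above background on 4 and 3 arrays.

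The probes are 60 bases long, and 4 are shown so that the values below can be tied to a stretch of transcript. For Krt19 and Epcam it is the tested probe, and for Krt7 and Sox9 a dimmer probe that was not the one tested. The dimmer probe followed the tested one in part for Krt7 and not for Sox9, as given below. The Krt7 probe A_52_P410685 lies on the plus strand at chr15:101409444-101409503 of build mm7, the build named in the file headers, and the Krt19 probe A_51_P356642 on the minus strand at chr11:100250117-100250176. The Epcam probe A_52_P447944 spans chr17:85952074-85952902 on the plus strand, 829 bases of genome for 60 bases of transcript, so it crosses a splice junction. The Sox9 probe A_51_P451606 spans chr11:112892041-112892893 on the plus strand, 853 bases of genome, and likewise crosses a junction.
Krt7: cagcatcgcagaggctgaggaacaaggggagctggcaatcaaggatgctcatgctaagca
Krt19: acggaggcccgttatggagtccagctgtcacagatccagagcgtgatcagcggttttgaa
Epcam: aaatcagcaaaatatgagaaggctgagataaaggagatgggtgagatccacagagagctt
Sox9: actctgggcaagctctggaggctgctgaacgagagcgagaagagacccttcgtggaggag
The other Krt7 and Sox9 probes, A_51_P312348, A_52_P577484 and A_52_P214630, are brighter. The single most intense probe of each gene was the one tested.

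RefSeq promoters were matched for 5 of the 8 genes, Krt7, Epcam, Cftr, Afp and Prom1, on build GRCm38.p6. The 250 bases before the start are shown for a ductal keratin, for the ductal adhesion gene and for the fetal gene, because these members are compared below and their promoters differ in composition. Capitals mark matches on either strand, with overlaps allowed. The GC box was searched as GGGCGG. For the TATA box the letters were TATAAA. For part of the site of the HNF1 factors of liver they were GTTAAT. Krt7 is at chr15:101412153-101412402, Epcam at chr17:87635729-87635978 and Afp at chr5:90490464-90490713, each on the plus strand.
Krt7: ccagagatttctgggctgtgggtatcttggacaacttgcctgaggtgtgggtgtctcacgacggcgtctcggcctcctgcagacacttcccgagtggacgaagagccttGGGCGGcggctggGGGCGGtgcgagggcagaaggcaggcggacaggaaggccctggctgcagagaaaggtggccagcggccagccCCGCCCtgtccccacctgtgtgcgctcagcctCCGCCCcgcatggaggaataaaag
Epcam: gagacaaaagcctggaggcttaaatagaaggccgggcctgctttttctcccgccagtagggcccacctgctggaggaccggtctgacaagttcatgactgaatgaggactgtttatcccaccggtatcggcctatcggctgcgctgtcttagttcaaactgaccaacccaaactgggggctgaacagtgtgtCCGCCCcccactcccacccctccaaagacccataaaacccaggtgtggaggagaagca
Afp: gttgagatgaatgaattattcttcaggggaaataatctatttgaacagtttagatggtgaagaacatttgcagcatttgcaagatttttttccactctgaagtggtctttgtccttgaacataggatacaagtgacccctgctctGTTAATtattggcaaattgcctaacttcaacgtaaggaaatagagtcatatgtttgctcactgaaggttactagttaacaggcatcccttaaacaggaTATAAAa
The Krt7 window had 66.0% G and C and held 4 GC boxes, the Epcam window 56.4% and 1, and the Afp window 36% and none. The Afp window held a TATA box that begins 7 bases before the start and a GTTAAT that begins 105 bases before it. Among 32851 promoter windows of the same length, 32.7% held GGGCGG, 12.4% TATAAA and 6.43% GTTAAT. The Cftr window, with 76.4% G and C, held 6 overlapping or separate GC boxes. Both Prom1 windows held AACCNGTT, the motif of Grainyhead-like factors, which 1.79% of windows held. Letters searched for SOX factors, ACAATG, were in none of the members' windows and in 10.7% of all windows. The same held for GGAATG of TEAD factors (12.6%) and for TGTTTAC of FOXA factors (3.17%).

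None of the 8 markers differed between genotypes past the threshold. What the markers did show was a spread between animals, pooled within genotypes, that was wider than for most genes. The keratins Krt7 and Krt19 and the surface protein Cd24a were often high in the same livers, and Afp with Krt19 and Cd24a. These relations leaned on TAKI replicate 2, without which no pair of members passed. Those with Afp also fell short without certain other single livers.

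Krt7, an intermediate filament protein of simple ducts, stood at -1.16, -1.39, -1.93, -1.89 and -1.61 in WT replicates 1 to 5. In TAKI it stood at -2.15, -0.43, -2.05, -1.10 and -1.90, and in TEKI at -1.77, -1.51 and -2.54. TAKI replicate 2 was the highest of the 13 livers and TEKI replicate 3 the lowest, a range of 4.33-fold, and the 3 genotypes overlapped. The group means, in descending order, were -1.53 ± 0.74 (SD, n = 5) in TAKI, -1.60 ± 0.33 (n = 5) in WT and -1.94 ± 0.54 (n = 3) in TEKI. None of these neighbours differed beyond their spread. The dimmer Krt7 probe A_52_P410685, shown above, was also above background in all livers. It was lowest at -4.25 in TAKI replicate 5 and highest at -2.98 in TEKI replicate 1. Across the livers it followed the tested probe in part (Pearson r = 0.59, Spearman rho = 0.69, permutation p adjusted over 6 pairs of probes 0.068 and 0.034).

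Krt19, the smallest acidic keratin and the usual stain for bile ducts, stood at -1.79, -2.27, -2.71, -2.80 and -3.01 in WT. In TAKI it stood at -3.11, -1.36, -2.53, -2.04 and -2.60, and in TEKI at -2.28, -1.94 and -2.91. TAKI held both the highest liver, replicate 2, and the lowest, replicate 1, a range of 3.34-fold. Its means of -2.33 ± 0.66 in TAKI, -2.37 ± 0.49 in TEKI and -2.51 ± 0.49 in WT lay closer together than the spread within any genotype.

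Epcam, a cell adhesion molecule of ductal and progenitor epithelium, stood at -3.60, -2.78, -4.02, -3.44 and -3.44 in WT. In TAKI it stood at -4.27, -2.58, -3.48, -2.48 and -3.59, and in TEKI at -2.46, -3.43 and -3.51. TEKI replicate 1 and TAKI replicates 2 and 4 were the high livers, and TAKI replicate 1 was the lowest. Cd24a, a small glycoprotein of the cell surface, stood at -1.70, -1.22, -1.84, -1.82 and -2.42 in WT. In TAKI it stood at -1.78, -0.39, -2.03, -0.94 and -1.66, and in TEKI at -1.92, -1.50 and -2.30. TAKI replicates 2 and 4 were above every other liver for Cd24a, and the remaining 3 TAKI livers were within the WT range.

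Sox9, a transcription factor needed for duct formation, gave on its brightest probe -0.17, -0.27, -1.59, -0.41 and -2.05 in WT. In TAKI the values were -0.83, -0.28, -0.86, -1.12 and -0.83, and in TEKI -1.24, -1.25 and -1.14. The WT livers fell apart into 3 high and 2 low animals, replicates 3 and 5, with an SD of 0.86, while the TEKI livers lay within an SD of 0.06 of each other. Every TEKI liver was below every TAKI liver, with -1.14 in the highest TEKI liver against -1.12 in the lowest TAKI liver, and both groups lay inside the WT range. Sox9 was the only one of the 8 members on its tested probe whose TEKI and TAKI livers did not overlap, where 8.29% of all tested genes did not. A second bright Sox9 probe, A_52_P214630, followed the first across the livers (Pearson r = 0.97, Spearman rho = 0.95, permutation p adjusted over 6 pairs of probes 6.0e-05 for each, the smallest the permutations can give before adjustment). The junction probe A_51_P451606 did not (r = 0.19, rho = 0.26, adjusted permutation p = 0.64 and 0.46). It was above background on 9 of 13 arrays, 3 of them WT. On that probe the TAKI livers, at -4.87 to -4.32, were all above the WT livers, at -6.16 to -4.96, with an unadjusted p of 0.068 and an adjusted p of 0.42 in limma. Non-overlap of TAKI and WT was found for 7.49% of tested genes, 11.6% of those with probes in rows 1 to 266 of the array and 3.3% in rows 267 to 532. The junction probe lies in row 152, and WT replicates 3 and 5 were below background on it.

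Cftr, the chloride channel of the ductal surface, was near the lower limit of the arrays. Its tested probe was well above background on 5 of 13 arrays: WT replicate 2, TAKI replicates 2, 4 and 5, and TEKI replicate 1. It stood at -5.43, -5.12, -6.74, -5.59 and -5.62 in WT and at -6.07, -4.86, -5.83, -5.16 and -5.94 in TAKI. In TEKI it stood at -2.81, -5.45 and -5.23, so 1 liver was far above the other 12, and it was the animal whose whole array had the most spots above background. The other Cftr probe, A_52_P452881, did not follow (r = 0.13, rho = 0.37, adjusted permutation p = 0.64 and 0.31). It read -5.65 in TEKI replicate 1, below background, and was above background only in TAKI replicate 1, at -2.93.

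Afp, the fetal serum protein, stood at 0.08, 0.31, 0.43, 0.04 and -1.71 in WT. In TAKI it stood at -0.72, 0.71, -0.52, 0.43 and 0.12, and in TEKI at -0.44, 0.46 and -0.19. WT replicate 5 was the lowest of all livers and TAKI replicate 2 the highest, a range of 5.38-fold, the widest of the 6 members above background everywhere. Afp was measured on 10 spots per array, whose SD on 1 array had a median of 0.058. That value covers the spots of 1 array alone, and the SD of 0.71 between animals within genotype also holds any difference between arrays and samples. Prom1, a membrane protein of progenitor cells, was above background in 4 livers: WT replicates 2 and 4, at -4.40 and -5.47, and TAKI replicates 2 and 4, at -4.10 and -4.42. On that probe none of the 3 TEKI livers was above background. The other Prom1 probe, A_52_P402786, was above background in 2 livers, TEKI replicate 1 at -4.22 and TAKI replicate 4 at -4.95. The Prom1 probes thus picked out partly different livers (r = 0.59, rho = 0.51, adjusted permutation p = 0.068 and 0.16). No fold is given for TEKI. The fitted differences of Prom1 below are those of the first probe and are limited by values below background.

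**Figure D1:**
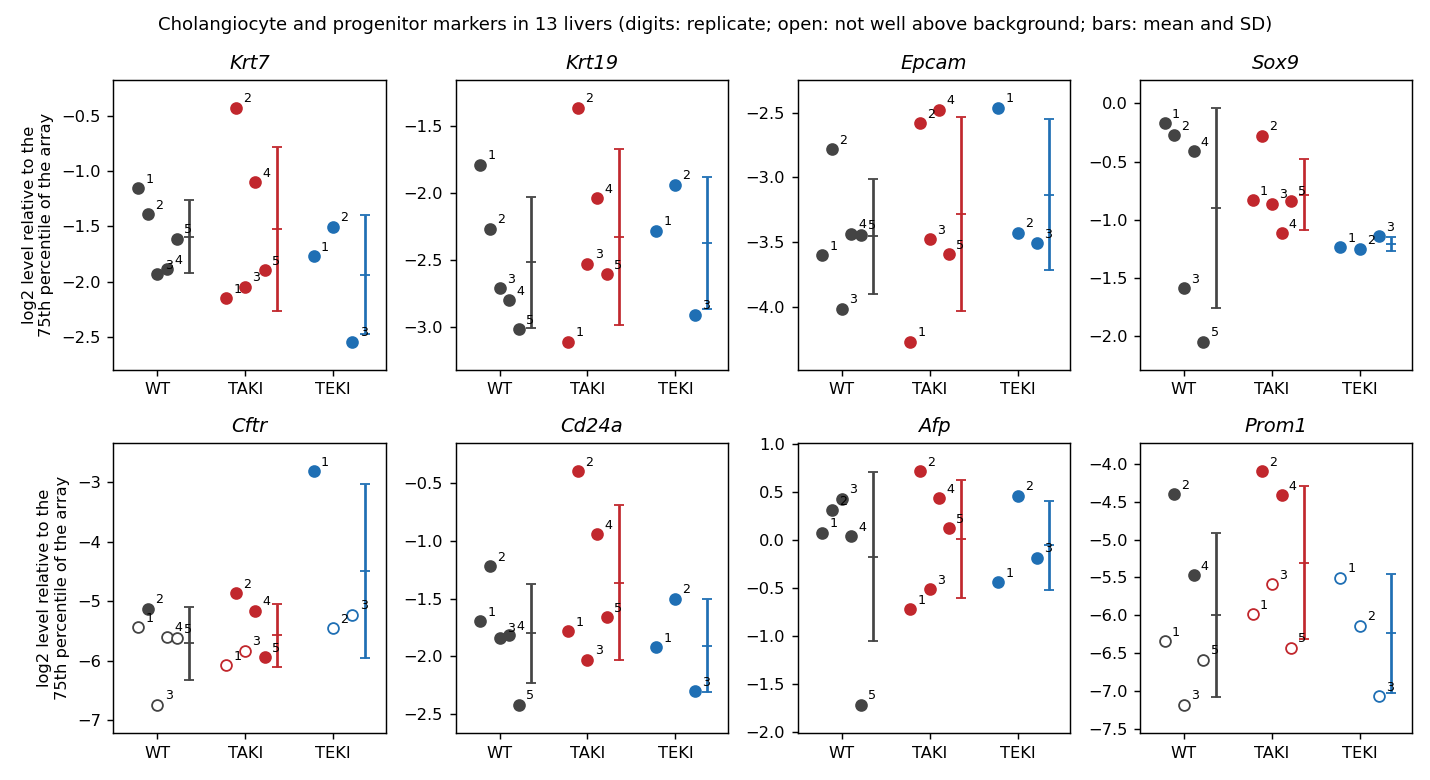
Levels of the tested probe of each marker in 13 livers, as log2 intensity above or below each array's 75th percentile (vertical axis, scaled per gene), for WT (5), TAKI (5) and TEKI (3). Digits give the replicate, open circles a probe not well above background, and bars the mean and SD. TAKI replicate 2 is the highest liver for 5 of the 8 genes, and the genotypes overlap in every panel except TEKI against TAKI for Sox9.

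The question of the design is whether either change at T522 altered the liver transcriptome against wild type. TAKI minus WT and TEKI minus WT share the WT livers, so both are given side by side. By limma over all tested genes, with Benjamini-Hochberg adjustment and a threshold of 0.05, 0 of 8 members passed in TAKI against WT, where 2.82% of all tested genes passed. In TEKI against WT 0 of 8 passed, where 0.0049% of genes (1 gene) passed, and in TEKI against TAKI 0 of 8, where 3.45% passed. No member reached an unadjusted p under 0.05 in any comparison either, against 14.7%, 11.6% and 12.1% of tested genes. In TEKI against WT no member separated the groups without overlap, as 3.93% of tested genes did.

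In TAKI minus WT every interval of a member's difference included 0. Cd24a differed by 0.44 ± 0.32 (SE; 95% interval -0.26 to 1.13, adjusted p = 0.60), Krt19 by 0.19 ± 0.33, Epcam by 0.18 ± 0.36, Sox9 by 0.11 ± 0.34 and Krt7 by 0.07 ± 0.33. Afp differed by 0.18 ± 0.42, Cftr by 0.13 ± 0.49 and Prom1 by 0.69 ± 0.59, the last with an interval from -0.59 to 1.97. All 8 members were thus above 0 with a median of 0.18, against a median of 0.0021 and 50.4% above 0 over all tested genes. The sign was not stable: on the median of all probes in place of the 75th percentile, which lowers every TAKI minus WT difference by 0.15, Krt7, Sox9 and Cftr were below 0.

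In TEKI minus WT 4 of 8 members were above 0, with a median of 0.0045 against 0.072 over all genes. Cftr had the largest difference, 1.20 ± 0.56 (95% interval -0.02 to 2.43, unadjusted p = 0.054, adjusted p = 0.44 in limma). Without TEKI replicate 1 that value was 0.36. Krt7 was at -0.34 ± 0.39 and Sox9 at -0.31 ± 0.39, while Epcam was at 0.32 ± 0.42 and Krt19 at 0.14 ± 0.38. Cd24a was at -0.11 ± 0.37, Afp at 0.12 ± 0.48 and Prom1 at -0.24 ± 0.68. The Krt7 probes disagreed in sign, with 0.32 ± 0.30 on the dimmer probe. For Sox9 the junction probe gave 0.88 ± 0.41, with an unadjusted p of 0.051 and an adjusted p of 0.46.

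In TEKI minus TAKI 2 of 8 members were above 0 with a median of -0.24, against 0.064 over all genes. Cd24a was at -0.55 ± 0.37 (95% interval -1.35 to 0.25), Krt7 at -0.41 ± 0.39, Sox9 at -0.43 ± 0.39 and Prom1 at -0.93 ± 0.68. Krt19 was at -0.05 ± 0.38, Afp at -0.06 ± 0.48, Epcam at 0.15 ± 0.42 and Cftr at 1.08 ± 0.56. The precision is limited by 3 to 5 animals a group: the upper bounds in TAKI minus WT ran from 0.80 for Krt7 to 1.13 for Cd24a among the 5 ductal members above background in all livers. In simulated data of the same size, the changed genes were drawn at random from all tested genes. A change of 1 log2 unit was called for 56.7% of them in TAKI against WT and 32.8% in TEKI against WT. The members varied more between animals than most genes, as given below, so these shares do not hold for them.

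**Figure D2:**
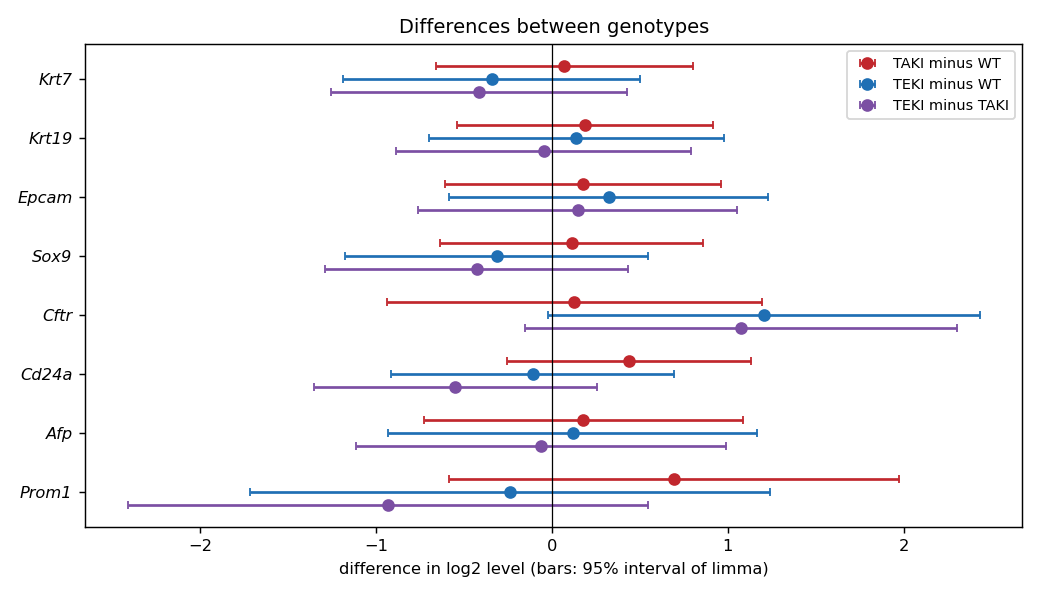
Differences in log2 level between genotypes for each marker (horizontal axis), with 95% intervals from limma. Every interval includes 0, and the intervals of Cftr and Prom1, dim on most arrays, are the widest.

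The spread between animals was larger than for most genes. The SD pooled within genotype was 0.54 for Cd24a, 0.56 for Krt19, 0.57 for Krt7, 0.58 for Sox9, 0.61 for Epcam and 0.71 for Afp. Over all tested genes its median was 0.29, and these 6 members stood between the 72.1st percentile, for Cd24a, and the 82.7th, for Afp. The dim Cftr and Prom1 had 0.83 and 1.00. For Sox9 the SD was 0.86 in WT, 0.31 in TAKI and 0.06 in TEKI, so its pooled value came mostly from WT.

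The same livers were often high or low from marker to marker. TAKI replicate 2 was the highest of 13 for 5 members (Krt7, Krt19, Cd24a, Afp and Prom1) and among the 3 highest for all 8. TAKI replicate 4 was among the 3 highest for 5 members and WT replicate 2 for 4. TAKI replicate 1 and WT replicate 5 were among the 3 lowest for 5 members each, and WT replicate 3 and TEKI replicate 3 for 4 each. High and low livers thus came from WT and TAKI alike.

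The 6 members above background in all livers form 15 pairs, and all 15 had a positive Pearson correlation across the 13 animals, with a median r of 0.55. Permutation tests with 100000 resamples, two-sided and adjusted over the 15 pairs, passed 0.05 for 5 pairs. Krt7 with Krt19 gave r = 0.86 (adjusted permutation p = 0.0030) and rho = 0.80 (0.014). Each pair was also read without the 2 livers farthest from the median of its first gene. Krt7 with Krt19 then gave r = 0.77. Krt7 with Cd24a gave r = 0.82 (0.0060) and rho = 0.69 (0.031), and r = 0.57 without the 2 extreme livers. Krt19 with Cd24a gave r = 0.78 (0.0062) and rho = 0.70 (0.031), and r = 0.72 without the 2 livers extreme for Krt19. Cd24a with Afp gave r = 0.74 (0.022) and rho = 0.81 (0.014), and r = 0.72 without the 2 livers extreme for Cd24a. Krt19 with Afp gave r = 0.66 (0.040) and rho = 0.73 (0.031), and r = 0.63 without the 2 livers extreme for Krt19. This pair fell short without WT replicate 2 or 5, TAKI replicate 1 or 4, or TEKI replicate 2 (adjusted permutation p of r 0.058 to 0.090). Under the background correction normexp it also fell short (r = 0.55, 0.15). Cd24a with Afp fell short without TAKI replicate 4 (0.059).

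Krt7 with Afp did not pass, at r = 0.44 (adjusted permutation p = 0.17) and rho = 0.60 (0.073), and r = 0.33 without the 2 extreme livers. No pair with Epcam or Sox9 passed either. Epcam with Krt7 gave r = 0.60 (adjusted permutation p = 0.061) and rho = 0.62 (0.070), and with Cd24a r = 0.55 (0.092) and rho = 0.34 (0.33). With the genotype means subtracted both passed, at r = 0.70 (adjusted permutation p = 0.024) and 0.63 (0.045), though these p-values are too small, as explained below. Without TEKI replicate 1 both passed as well, at r = 0.71 and 0.70 (adjusted permutation p = 0.027 each). Epcam with Krt19 gave r = 0.62 (adjusted permutation p = 0.061) and rho = 0.51 (0.13), and Epcam with Sox9 gave r = 0.18 (0.55) and rho = -0.04 (0.91). Sox9 with Krt7 gave r = 0.37 (0.24) and rho = 0.31 (0.35). The number of pairs past 0.05 rested on TAKI replicate 2: without it 0 of 15 passed, Krt7 with Krt19 at r = 0.77 having an adjusted permutation p of 0.058, while all 15 stayed positive. With the genotype means subtracted 7 pairs passed, Krt7 with Krt19 at r = 0.92. With the slide means subtracted, over the 12 livers on slides that hold at least 2, 9 passed, with r = 0.86 for that pair. All 15 correlations stayed positive after the genotype means or the slide means were removed. The permutations in these settings shuffled all livers freely and did not allow for the means removed. Their p-values are therefore too small, and how many pairs would pass otherwise was not tested. TAKI replicate 2 was kept in both settings, and no correlation was taken inside a single genotype or slide.

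**Figure D3:**
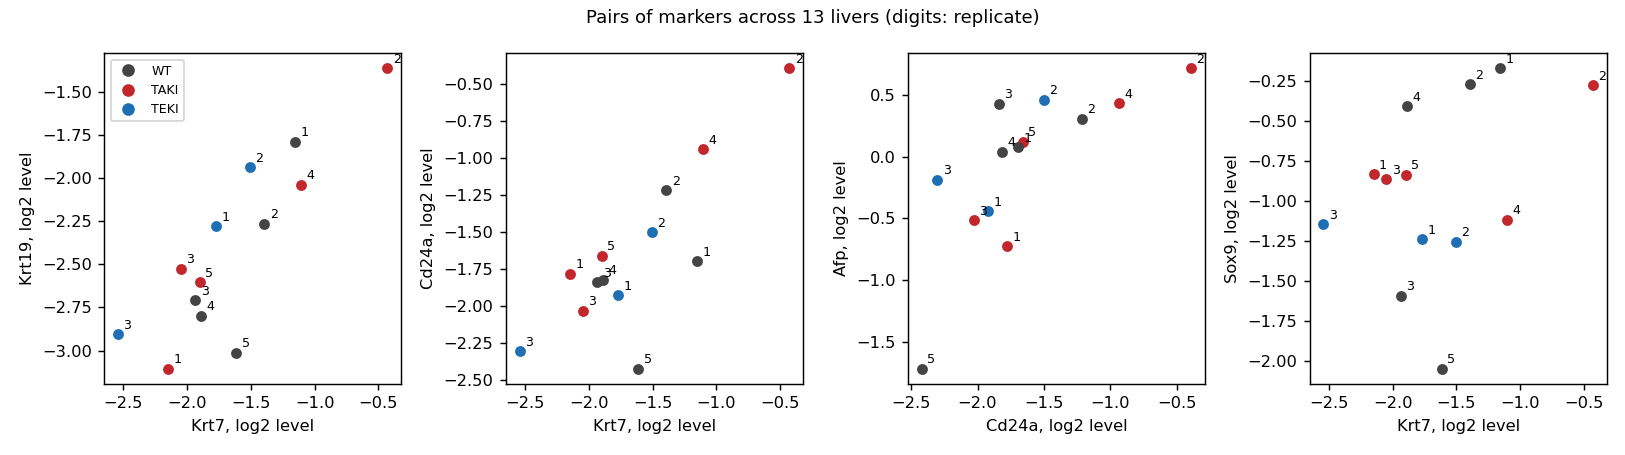
Levels of 4 pairs of markers in the 13 livers, both axes as log2 levels, coloured by genotype with the replicate number beside each point. Krt7, Krt19 and Cd24a rise together up to TAKI replicate 2 at the top right, whereas Sox9 follows Krt7 loosely (r = 0.37).

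The genes whose pattern was most like each member were sought among 13214 genes with a current symbol, unsaturated and above background on all 13 arrays. For Krt7 they were Ift57, 2810001G20Rik and Pafah1b2 (r = 0.92, 0.89 and 0.89), and for Krt19 Pygb, Mgp and Tlr6 (r = 0.93, 0.91 and 0.90). For Epcam they were Il17re, Cacna2d1 and Cldn7 (r = 0.91, 0.89 and 0.85), of which Cldn7 encodes a claudin of epithelial tight junctions. Sox9 had Plxnb1, Cldn1 and Bcl10 (r = 0.91, 0.89 and 0.88). Cd24a had Katnbl1, Scara3 and Nck2 (r = 0.93, 0.93 and 0.92), and Afp had Trdmt1, Clba1 and the imprinted gene Mest (r = 0.95, 0.95 and 0.94). Afp had 349 genes with r over 0.8, or 2.64%, whereas Epcam had 20 and Sox9 21. These r describe 13 livers that share slides and scaling, and each was picked as the highest of many.

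Other markers of the biliary epithelium were read from a list of 30 genes, of which 28 were tested. By limma 1 of the 28 rose and 0 fell in TAKI minus WT, 0 passed in TEKI minus WT, and 1 fell in TEKI minus TAKI. At an unadjusted p under 0.05 there were 4, 3 and 4 of 28, where 14.7%, 11.6% and 12.1% of all tested genes had one. The gene that passed was Itgb4, the integrin subunit that anchors epithelia to the basement membrane. It stood at -2.29, -2.05, -2.33, -2.29 and -2.27 in WT, at -1.27, -1.60, -1.23, -1.66 and -1.62 in TAKI and at -1.81, -2.33 and -2.17 in TEKI. All TAKI livers were above all WT and TEKI livers. Itgb4 was higher in TAKI than in WT by 0.77 ± 0.13 (adjusted p = 0.0080 in limma) and lower in TEKI than in TAKI by 0.63, with a difference of -0.63 ± 0.15 (adjusted p = 0.035). The call belongs to 1 of 3 Itgb4 probes, A_51_P408382: A_52_P143287 gave 0.09 ± 0.21 and A_52_P459521 -0.14 ± 0.60 for TAKI minus WT, and the mean of its probes that pass the filter gave 0.24 ± 0.25 with an adjusted p of 0.77. On the scaling by the median of all probes its adjusted p was 0.075. The probe that passed lies in row 82, in the part of the array described below, and Itgb4 did not follow Krt7 or Krt19 across the livers (r = -0.01 and 0.00). The median difference of the list was 0.15 in TAKI minus WT and -0.01 in both other comparisons.

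Across the livers many of these ductal genes did follow the members. The median r of the 28 genes was 0.42 with Krt7 and 0.46 with Epcam, against -0.10 and 0.07 over all tested genes, and r was over 0.5 with Krt7 for 10 of 28 and with Epcam for 14, against 9.47% and 8.01% of all genes. The examples that follow were chosen after their values were seen. With Cd24a, the annexin Anxa13 had r = 0.90, the secreted matrix protein Spp1 0.88, the cystic kidney gene Pkhd1 0.87, and Bicc1, Cldn7 and Tspan8 0.84 each. Spp1, osteopontin, stood at 6.02 and 5.70 in TAKI replicates 2 and 4 and at 5.69 in WT replicate 2, and at 2.94 and 3.03 in WT replicate 5 and TAKI replicate 1. The high and the low livers of Spp1 were thus those of the members. Onecut1 and Onecut2, transcription factors of early duct formation that hepatocytes express too, ran the other way (r = -0.81 and -0.79 with Cd24a).

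Progenitor and fetal genes other than the members gave 0 of 14 tested past the threshold of limma in each comparison, and 0 at an unadjusted p under 0.05. The 2 of smallest p in TAKI minus WT were Lgr5, a Wnt target, at -0.37 ± 0.18 (adjusted p = 0.39 in limma) and Peg3 at -0.60 ± 0.32 (0.43), and in TEKI minus WT the imprinted RNA H19 at 0.67 ± 0.33 (0.45). Their median r was 0.24 with Krt7 and 0.12 with Afp. Regulators of Afp, among them the repressors Zbtb20 and Zhx2, gave 0 of 11 by limma. At an unadjusted p under 0.05 they gave 2, 1 and 1 in the 3 comparisons in the order above. The shares over all tested genes were 14.7%, 11.6% and 12.1%. Trp53, in TEKI minus TAKI at 0.52 ± 0.13, came nearest with an adjusted p of 0.056. Their median r with Afp was -0.51, with Hnf4a, the nuclear receptor of hepatocyte identity, at -0.82. Notch and Yap pathway genes, which guide duct fate, gave 0 of 20 tested by limma. At an unadjusted p under 0.05 they gave 1, 2 and 1, beside the same shares over all tested genes. Notch2, a receptor, was at -0.25 ± 0.10 (adjusted p = 0.23) in TAKI minus WT and Rbpj, the nuclear partner of Notch, at -0.43 ± 0.17 (0.40) in TEKI minus WT. Their median r was 0.47 with Cd24a and 0.26 with Krt7.

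Most macrophage and stellate markers moved with the keratins across the livers, and most hepatocyte markers moved against them. The 10 macrophage markers had a median r of 0.57 with Krt7 and 0.70 with Krt19, and the 12 stellate and fibroblast markers 0.57 and 0.63. The 11 hepatocyte markers had a median r of -0.56 with Krt7, -0.49 with Krt19 and -0.57 with Cd24a. Over all tested genes the median r was -0.10, -0.08 and -0.14. The macrophage markers Clec4f and Timd4 (r = -0.05 each with Krt7) and the hepatocyte marker Hpx (r = 0.29) were exceptions. None of these r was tested, and all include TAKI replicate 2. The 10 endothelial markers had a median r of 0.12 with Krt7 and 0.16 with Krt19. The mean of the macrophage list, centred on its mean over all livers, ranged from -0.52 to 0.59 in WT, from -0.35 to 0.61 in TAKI and from -0.93 to 0.49 in TEKI. The stellate and fibroblast list ranged from -0.43 to 0.28, -0.86 to 0.43 and -0.56 to 0.31, and the hepatocyte list from -0.18 to 0.20, -0.21 to 0.12 and -0.10 to 0.34. The groups overlapped on each of the 3 lists. By limma 0 genes of these 3 lists passed the threshold in any comparison. In TEKI minus TAKI 0 macrophage, 1 stellate and 1 hepatocyte marker had an unadjusted p under 0.05, against 12.1% of all tested genes. Their part in the members' spread was not tested. Pancreatic acinar, gut, B cell and neutrophil markers had a median r between -0.13 and 0.10 with Krt7. Among the 14 acinar markers tested, TAKI minus WT had 2 that rose, Cpb1 at 1.68 and Sycn at 0.95, and 2 that fell, Rnase1 at -2.10 on 1 of its 2 probes (-0.19 on the other) and Zg16 at -1.92. In TEKI minus TAKI Rnase1 rose, at 2.99, and so did Zg16, at 2.74. Zg16 was above background in only 1 of 5 TAKI livers and Rnase1 in 3 of 5, and Cpb1 in 3 of 5 WT livers, so the sizes of these differences are uncertain. In TAKI minus WT the call of Cpb1 was lost under 12 of 24 alternatives and that of Sycn under 14 of 25. The probes of Cpb1 and Sycn lie in rows 173 and 39 of the array, and those of Rnase1 and Zg16 in rows 460 and 450.

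**Figure D4:**
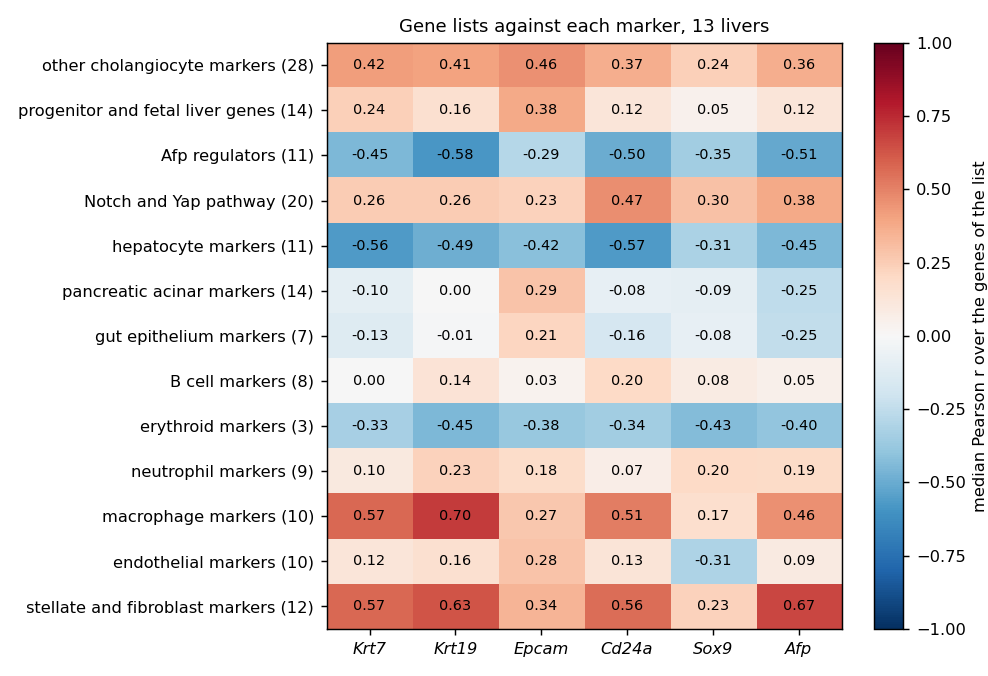
Median Pearson r, over 13 livers, between the genes of each list (rows, with the number of genes tested) and each of 6 markers (columns), on a colour scale from -1 to 1. Macrophage and stellate lists are positive with Krt19 (0.70 and 0.63), and the hepatocyte list is negative with every marker.

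Place on the array moved with the calls in both comparisons that involve TAKI. In TAKI minus WT 3.65% of tested probes in rows 1 to 266 were called higher, against 0.0791% in rows 267 to 532. Called lower were 0.0487% against 1.85%. In TEKI minus TAKI the split was reversed, with 0.156% against 4.83% called higher and 1.92% against 0.0198% called lower. The tested probes of Krt7, Krt19, Epcam, Sox9, Cd24a and Prom1 are each on 1 spot and all lie in rows 1 to 266, so their differences could not be read in the other rows. Afp, Cftr and a second Sox9 probe are each on 10 spots spread over both. Afp was higher in TAKI than in WT on 10 of 10 spots, by 0.15 ± 0.47 (SE over animals) on the 6 spots in rows 1 to 266 and by 0.23 ± 0.48 on the 4 in rows 267 to 532. Sox9 on A_52_P214630 was higher on 10 of 10, by 0.08 ± 0.42 and 0.24 ± 0.42. Cftr was higher on 7 of 10, by 0.17 ± 0.39 and 0.05 ± 0.38. The Sox9 probe here is the second bright one, not the tested one. For these 3 genes each difference was smaller than its standard error in both parts.

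**Figure D5:**
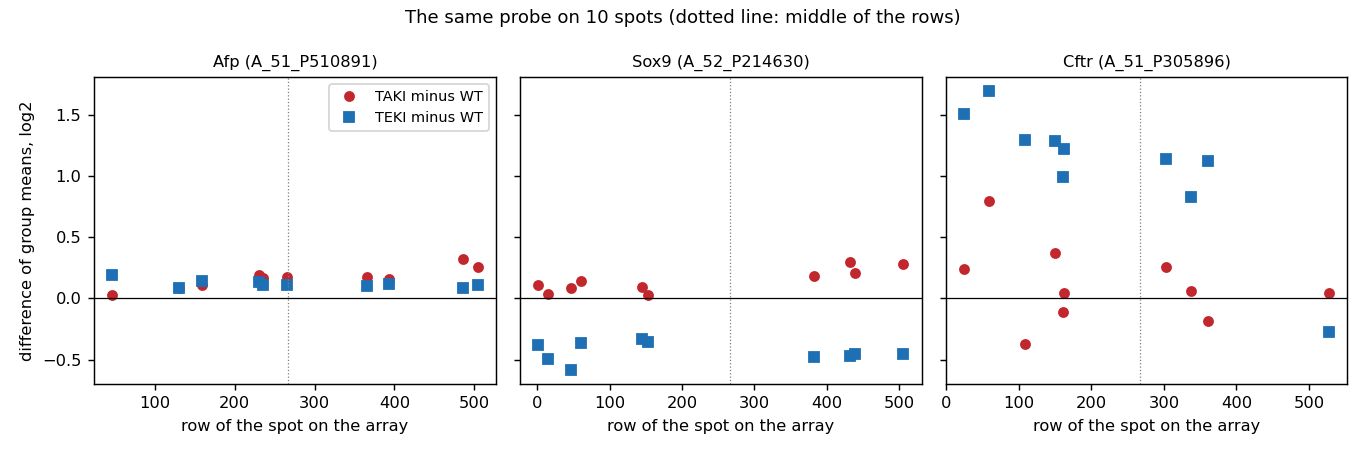
Differences between group means for each of 10 spots of 1 probe (vertical axis, log2) against the row of the spot on the array, for Afp, Sox9 and Cftr. Afp lies above 0 on every spot in both comparisons, Sox9 above 0 in TAKI minus WT and below 0 in TEKI minus WT, and Cftr scatters widely.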

How the data were processed

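Agilent Feature Extraction 9.5 made the scanner files, per the submitters' processing notes. Each deposited value is a spot's Cy3 intensity, linear and corrected for background by that software, per the file headers, and not scaled across arrays. The value table deposited with the series repeats these intensity values (largest absolute difference 0). Here log2 of the deposited intensity was taken, each array's 75th percentile was subtracted, outlier spots were dropped and spots of a probe averaged. A gene was represented by its probe of highest mean, if well above background on at least 3 arrays. A single limma model (version 3.58.1, R 4.3.3) of the 3 genotypes over 13 arrays, with 10 residual degrees of freedom and no block, gave all differences and adjusted p-values. Correlations came from Python 3.11.15 with pandas 2.3.3 and scipy 1.17.1, figures from matplotlib 3.10.9. The fit was checked on simulated data. The number of arrays limits the precision.

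The members and lists were chosen with earlier results of these data known. Named are the members, list genes past the threshold or otherwise of smallest p (a result of 1 further list is not reported here), and the 3 genes most like each member. Alternatives covered scaling, background correction, filters, probe choice, slide, replicate block and single livers. The sources used here do not say how the tissue was sampled. Probe positions are those of the files (mm7). Protein sequences were not used here.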

Additional observations from a re-analysis of the deposited data

Results flagged for a closer look

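Among 26 groups of 5 livers, 1 for each member probe in WT and in TAKI, 5 held a liver far from the other 4. The rule was a gap to the nearest liver of more than 0.71 of the group's range. For independent normal values that rule flags about 1 in 20 groups. The 26 groups share livers and genes, so the 5 cannot be set against that share. TAKI replicate 2 stood apart on the second Krt7 probe A_52_P410685, at -3.22 against -4.07 in the nearest TAKI liver. It also stood apart on the second Sox9 probe A_52_P214630, at -0.80 against -1.43. WT replicate 3 was low on the Sox9 junction probe A_51_P451606, at -6.16 against -5.30, where it was below background. TAKI replicate 1 was high on the Cftr probe A_52_P452881, at -2.93 against -7.22, the only liver above background there. WT replicate 5 was low for Afp, at -1.71 against 0.04, and without it the TAKI minus WT difference of Afp was -0.21 in place of 0.18.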

How the results depend on the processing

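Of 610 values of the 24 member differences under the alternatives, 550 kept their direction and stayed short of the threshold, 59 turned in sign without passing it, and 1 passed: Cftr in TEKI minus TAKI under normexp (0.80, adjusted p = 0.0061), so that 1 member passed there and 4195 genes did. Scaling by the median lowers TAKI minus WT by 0.15, TEKI minus WT by 0.43 and TEKI minus TAKI by 0.28 for every gene. Scaling by the median of all probes turned the sign in TAKI minus WT of Cftr (-0.023), Krt7 (-0.080), Sox9 (-0.038) and in TEKI minus WT of Afp (-0.31), Epcam (-0.11), Itgb4 (-0.29), Krt19 (-0.29), Sycn (-0.20) and in TEKI minus TAKI of Epcam (-0.13). Quantile normalization turned the sign in TAKI minus WT of Cftr (-0.016), Krt7 (-0.0034) and in TEKI minus WT of Epcam (-0.094), Itgb4 (-0.062), Krt19 (-0.19), Sycn (-0.10) and in TEKI minus TAKI of Epcam (-0.11). Normexp with an offset of 50 turned the sign in TAKI minus WT of Cftr (-0.31), Epcam (-0.064), Prom1 (-0.20) and in TEKI minus WT of Prom1 (0.037) and in TEKI minus TAKI of Cpb1 (0.087), Krt19 (0.12), Prom1 (0.24). Averaging the probes of each gene turned the sign in TAKI minus WT of Krt7 (-0.019) and in TEKI minus WT of Sox9 (0.038) and in TEKI minus TAKI of Itgb4 (0.22), Krt7 (0.0071). The slide as a random block turned the sign in TEKI minus TAKI of Afp (0.0049). The deposited table with no scaling turned the sign in TEKI minus TAKI of Epcam (-0.12). Slide as a fixed block, and slide 3 alone, which give the same values, turned the sign in TEKI minus WT of Cd24a (0.51), Prom1 (0.35), Rnase1 (-0.43), Sox9 (0.84), Zg16 (-0.13). Leaving out 1 liver at a time turned the sign at least once for the following, given as the lowest to the highest value: in TAKI minus WT Afp -0.21 to 0.36, Cftr -0.13 to 0.27, Epcam -0.024 to 0.42, Krt19 -0.054 to 0.38, Krt7 -0.20 to 0.23, Sox9 -0.17 to 0.29; in TEKI minus WT Afp -0.27 to 0.31, Cd24a -0.31 to 0.088, Epcam -0.013 to 0.51, Itgb4 -0.0058 to 0.26, Krt19 -0.079 to 0.41, Prom1 -0.61 to 0.18, Sycn -0.10 to 0.48; in TEKI minus TAKI Afp -0.32 to 0.13, Cpb1 -0.75 to 0.15, Epcam -0.19 to 0.35, Krt19 -0.27 to 0.22. Itgb4 lost its call in TAKI minus WT under 2 of 25 alternatives and in TEKI minus TAKI under 14 of 25, as did Cpb1 under 12 of 24, Sycn under 14 of 25, Rnase1 under 3 of 24 and Zg16 under 6 of 24 in TAKI minus WT. What causes these turns was not tested.

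Over all genes tested, TAKI minus WT had 575 calls, against 999 on the median, 880 with quantile normalization, 1015 in the deposited table, 254 with probes above background on all 13 arrays and 1333 with only these 2 groups in the fit; without 1 liver it had 295 to 1312. TEKI minus WT had 1 call, against 2 on the median, 5 with quantile normalization, 0 with normexp, 2 with no filter, 0 with probes above background on all arrays, 8 with slide as a fixed block, 0 within slide 3, and 1 to 93 without 1 liver. TEKI minus TAKI had 704, against 1131 with quantile normalization, 296 with probes above background on all arrays, and 408 to 1099 without 1 liver.

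The labels do not say that a replicate number marks animals kept or processed together, and not every same-numbered pair correlated above 0.1 after group means were removed (-0.23 to 0.32), so the numbers were not used as pairs. With the replicate block TAKI minus WT had 343 calls and no member passed, and in TEKI minus WT Afp turned to -0.013. Among the 15 pairs of members, 5 passed, against 12 with the median, 8 with quantile normalization and 4 with normexp. With the genotype means subtracted 7 passed and with the slide means 9, by permutations that do not allow for the means removed. Without 1 liver 0 to 8 passed (0 without TAKI replicate 2, 8 without TEKI replicate 1). The alternatives for these pairs were chosen after seeing the data, other than subtracting the genotype means and leaving out TEKI replicate 1. Cftr and Prom1, dim on most arrays, are limited by signal over background.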
